A study of Homo sapiens with 21 samples.

Results

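In the established cell line Hs578T, which derives from a triple-negative breast tumour, 3 libraries of cells treated with lapatinib (3.16 µM) together with a low dose of THZ531 (0.1 µM) were compared with 3 libraries of cells treated with THZ531 alone at 1 µM, and all genes that passed a filter on low counts entered the comparison. These 6 libraries were part of a series of 21, in which the other groups were DMSO, THZ531 at 0.1 µM, lapatinib at 3.16 µM, nilotinib at 1 µM, and nilotinib at 1 µM with THZ531 at 0.1 µM, each with 3 replicates. All cells were collected 8 h after treatment and polyA-selected RNA was sequenced. The comparison addresses which genes and gene classes set the lapatinib combination apart from a dose of THZ531 that was high on its own. The study describes its experiments as independent repeats in 1 cell line. The p-values measure the spread between replicate libraries, estimated jointly over all 21 libraries and not from the 6 compared libraries alone.

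CDK12 and CDK13 are kinases that phosphorylate the C-terminal domain of RNA polymerase II during elongation. They are best known for keeping up the transcription of long genes with many exons, among them genes of homologous recombination. THZ531 binds both kinases covalently. Lapatinib blocks the tyrosine kinase activity of EGFR and HER2 (ERBB2), receptors that signal through ERK to the immediate-early genes, and nilotinib is an inhibitor of the ABL kinases. ABCG2 is a membrane pump that carries drugs out of cells.

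Total counts of the 6 libraries were between 102203282 and 105119748, and 16036 of 28395 genes were tested. The defining markers of Hs578T as a mesenchymal-like line were present, with VIM at 8387 to 8910 CPM (counts as a share of the library total; elsewhere CPM is after TMM scaling), while EPCAM, KRT19 and PGR did not exceed 0.058 CPM and HBB was at 0. Other epithelial or luminal markers were present, with KRT18 at 110.7 to 140.1, KRT8 at 27.3 to 32.1, ERBB2 at 20.99 to 30.75 and GATA3 at 6.62 to 16.2 CPM. The leukocyte gene PTPRC was at 1.34 to 2.25 CPM. Replicates of a group correlated at 0.990 to 0.993 on the log2 CPM scale. Replicate 2 of 1 µM THZ531 and replicate 1 of the lapatinib combination stood somewhat apart, since their log2 CPM deviated from the mean of the other 2 libraries of the group with an SD of 0.31 and 0.28 over 10913 genes, against 0.16 to 0.24 for the other 4 libraries. Counts without single libraries, or with another scaling, are given below for gene lists that moved with them.

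In the lapatinib combination, 292 genes were lower (1.82% of the genes tested) and 211 were higher (1.32%) than with 1 µM THZ531, 3.14% in either direction. A gene was called when the quasi-likelihood test of edgeR gave a p under 0.05 after Benjamini-Hochberg adjustment over all tested genes, and its fold change (FC) exceeded 2, that is, a log2 FC beyond 1. At any size, 2589 genes (16.1%) were lower and 2049 (12.8%) were higher. Most differences were small, since the median log2 FC was -0.02 (-0.16 under scaling to mitochondrially encoded mRNAs, -0.08 under library size alone), the median size of the log2 FC was 0.23, and 75.9% of genes differed by less than 0.5 on the log2 scale. The libraries of the groups did not overlap for 3154 lower (19.7%) and 2546 higher genes (15.9%). With scaling to library size alone there were 373 lower and 160 higher genes, and with scaling to the 13 mitochondrially encoded mRNAs 460 lower and 123 higher, so the balance between the directions depended on the scaling. A test against a difference of 2-fold, in place of no difference, called 5 lower genes (FOS, IRF2, FCHO2, ZCCHC24 and BEND3P3) and 0 higher genes, with 173 lower and 95 higher genes at an unadjusted p under 0.05 in edgeR's glmTreat.

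The higher genes rested more on a library than the lower ones did. Of 116 genes that were called higher and had a mean log2 CPM of at least 1, replicate 2 was the lowest library of the 1 µM THZ531 group in 115. Without that library, 85 genes were called higher and 270 lower. Of the 211 genes, 73 were 2-fold higher in both fits, and 169 were still higher at any size. Leaving out replicate 1 of the lapatinib combination gave 337 higher and 312 lower genes, and leaving out replicate 1 of 1 µM THZ531 gave 329 higher and 278 lower genes. What set replicate 2 of 1 µM THZ531 apart was not tested.

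**Figure D1:**
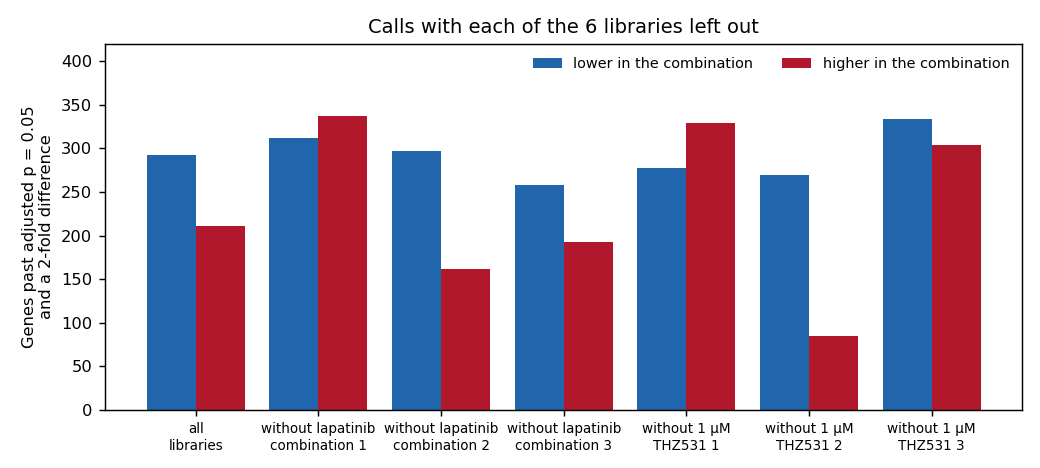
Number of genes past an adjusted p of 0.05 and a 2-fold difference (y axis) with all libraries and with each of the 6 libraries of the comparison left out (x axis); blue bars are genes lower and red bars genes higher in the lapatinib combination than with 1 µM THZ531. The lower genes stay between 258 and 334, whereas the higher genes drop from 211 to 85 without replicate 2 of 1 µM THZ531.

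Relative to DMSO, most of the lower genes lay further out in the combination than with the high dose. Of the 292 lower genes, 233 were below DMSO in both groups and further below in the combination, with a median log2 FC against DMSO of -2.75 in the combination and -1.36 with 1 µM THZ531. Another 18 of the lower genes were above DMSO in both groups, with medians of 1.72 in the combination and 3.17 with 1 µM THZ531. The groups lay on opposite sides of DMSO for 30 lower genes with the high dose nearer to it and for 11 with the combination nearer. Of the 211 higher genes, 97 were above DMSO in both groups and further above in the combination, where the medians were 2.34 and 1.07. A further 20 were below DMSO in both, with the combination nearer to it, and the groups lay on opposite sides of DMSO for 61 genes with the high dose nearer to it and for 33 with the combination nearer. These differences share the DMSO libraries, and the genes were selected on the contrast itself, so the positions are a description.

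The higher genes had few exons. Of 238 protein-coding lower genes with an annotated canonical transcript, 18.1% had 1 to 3 exons, against 53.5% of the 172 higher genes and 13.6% of all 13619 protein-coding genes with such a transcript. The median number of exons was 7 among the lower, 3 among the higher and 9 among all tested protein-coding genes, and the median genomic span was 44.6 kb, 15.6 kb and 31.2 kb. At any size, 106 of 329 genes with 1 exon were higher (32.2%) and 24 were lower (7.29%). Among 5731 genes with more than 10 exons the order was the opposite, with 586 higher (10.2%) and 1243 lower (21.7%). Genes spanning less than 10 kb were higher in 19.5% and lower in 6.05%, whereas genes of 30 to 100 kb were higher in 12.1% and lower in 24.2%.

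The exon classes also stood apart within a class of span. Within genes under 10 kb, 29.1% of 1121 genes with 1 to 3 exons were higher, against 13.3% of 1657 genes with 4 or more exons, and the shares that were lower were 5.89% and 6.28%. Within genes of 30 to 100 kb, 22.5% of 200 genes with 1 to 3 exons and 11.6% of 4110 genes with 4 or more exons were higher. The counts kept this order when library size alone was used, with 98 higher and 33 lower genes of 1 exon and 444 higher and 1631 lower genes of more than 10 exons. It also held without replicate 2 of 1 µM THZ531, with 87 higher and 19 lower genes of 1 exon and 379 higher and 1036 lower genes of more than 10 exons. With scaling to mitochondrial mRNAs 79 genes of 1 exon were higher and 26 lower, and 244 genes of more than 10 exons were higher and 1168 lower. The nilotinib combination, against the same high-dose libraries, had 62 higher and 28 lower genes of 1 exon. Of more than 10 exons it had 643 higher and 854 lower genes. Directly between the combinations, 15 of 329 genes of 1 exon were higher with lapatinib and 1 was lower. Of 5731 genes above 10 exons 15 were higher and 70 lower, and of 2828 genes under 10 kb 73 were higher and 4 lower. Over all tested genes, 0.73% were higher and 0.736% lower between the combinations. Shares depend on how many reads a gene has, and of the 4009 genes with the lowest mean levels 4.22% were lower and 3.04% were higher.

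**Figure D2:**
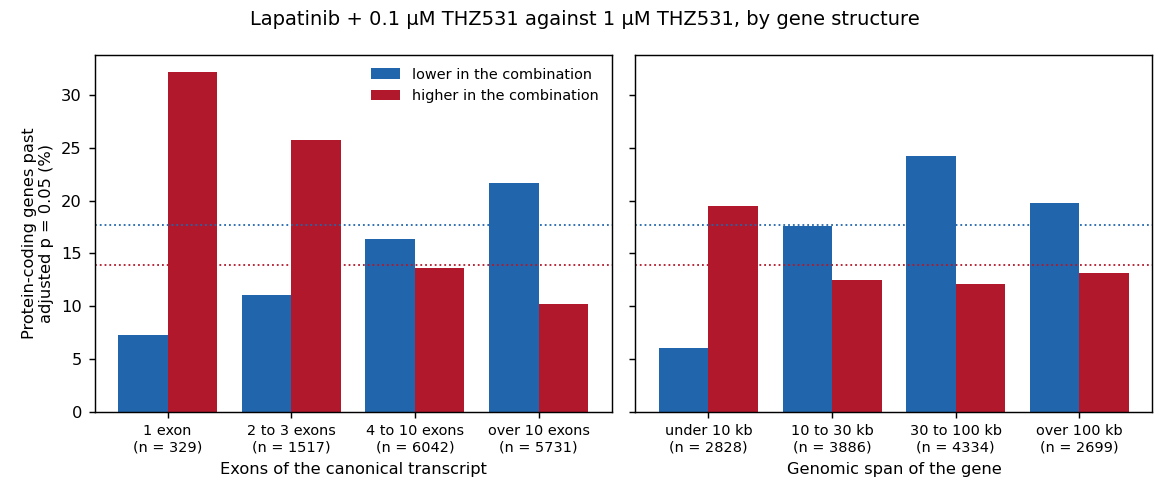
Share of protein-coding genes (%, y axis) that were lower (blue) or higher (red) in the lapatinib combination than with 1 µM THZ531 at an adjusted p under 0.05, by number of exons (left) and genomic span (right); dotted lines mark the shares over all 13747 protein-coding genes tested. The share of higher genes falls from 32.2% at 1 exon to 10.2% above 10 exons, and the share of lower genes rises from 7.29% to 21.7%.

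Immediate-early genes separated into a pair that was lower and a larger group that was higher. These genes are transcribed within minutes of growth factor or stress signals, and many encode AP-1 subunits or other short-lived regulators. Of 28 members tested, 17 were higher (60.7%) and 2 were lower (7.14%), beside 12.8% and 16.1% of all genes tested, and the median log2 FC was 0.44, beside -0.02 over all genes. FOS, an AP-1 subunit (NCBI gene 2353, chr14:75278828-75282230, GRCh38.p14), was at 11.4, 15.7 and 11.5 CPM in the combination and at 52.1, 75.4 and 35.5 CPM with 1 µM THZ531. All combination libraries were below all high-dose libraries and above the DMSO libraries, at 1.34, 1.42 and 1.27 CPM, and the log2 FC between the groups was -2.08 (SE 0.20, adjusted p = 3.11e-07). EGR1, a zinc finger factor named after its values were seen, was at 15.6, 30.9 and 18.5 CPM in the combination and at 62.0, 65.5 and 28.3 CPM with the high dose. Its libraries overlapped between the groups, with a log2 FC of -1.26 (SE 0.24, adjusted p = 0.00056).

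The other immediate-early genes past the test lay in the opposite direction. CCN2, a secreted matricellular protein gene, was at 802, 930 and 880 CPM in the combination and at 488, 365 and 438 CPM with 1 µM THZ531, and its log2 FC was 1.02 (SE 0.09, adjusted p = 2.02e-07). CCN1, its relative, and IER5 had log2 FC values of 1.01 and 1.02. The groups did not overlap for these genes, and JUN (0.75), JUNB (0.34), JUND (0.94), ATF3 (0.77) and KLF6 (0.91) were also higher. Against DMSO, FOS and EGR1 were at log2 FC 5.34 and 3.18 with the high dose and at 3.26 and 1.92 in the combination, while CCN2 was at 1.52 with the high dose and at 2.54 in the combination. In the nilotinib combination FOS was at 8.68 to 11 CPM, and its difference from the lapatinib combination did not pass the test (log2 FC 0.36, adjusted p = 0.48). Without replicate 2 of 1 µM THZ531, 16 members were higher and 2 lower. In the nilotinib combination, compared with the same high-dose libraries, 13 of the 28 members were higher and 5 lower. Directly between the combinations, 3 were higher with lapatinib and 0 were lower.

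The promoters of FOS and EGR1 are shown for the elements found in them, as the 250 bases before the RefSeq start (GRCh38.p14, plus strand), at chr14:75278578-75278827 for FOS and chr5:138465229-138465478 for EGR1. Capitals mark the TATA box TATAAA at 33 bases before the start of FOS, and a serum response element, the site bound by SRF, at 105 bases before the start of EGR1. Both strands were searched over 250 bases before to 50 after the start, in the RefSeq promoters matched to 219 of the 292 lower and 146 of the 211 higher genes. Sites further upstream were not searched, in FOS or in other genes, so no match here does not show that a gene lacks the element.
FOS: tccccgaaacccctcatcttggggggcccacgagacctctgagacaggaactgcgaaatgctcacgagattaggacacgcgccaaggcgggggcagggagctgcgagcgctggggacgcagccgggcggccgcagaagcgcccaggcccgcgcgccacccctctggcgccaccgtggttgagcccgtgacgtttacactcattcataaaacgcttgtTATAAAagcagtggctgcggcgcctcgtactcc
EGR1: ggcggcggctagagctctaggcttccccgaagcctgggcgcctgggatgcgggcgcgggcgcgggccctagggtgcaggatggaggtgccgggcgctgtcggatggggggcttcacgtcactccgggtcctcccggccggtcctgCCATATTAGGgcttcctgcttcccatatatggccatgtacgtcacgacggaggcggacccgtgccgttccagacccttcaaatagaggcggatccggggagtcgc

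The letters of that serum response element were in 1 of 219 promoters of lower genes, that of EGR1, in 0 of 146 promoters of higher genes and in 6 of 12271 promoters of all tested genes (0.049%). TATAAA was in 5.94% of the promoters of lower genes, 10.96% of those of higher genes and 6.53% of all. The AP-1 element TGACTCA was in 6.39% and 4.11%, against 3.47% of all promoters, and the E-box CACGTG was in 6.85% and 14.4%, against 9.63%. The cyclic AMP element TGACGTCA (2.28% and 2.74%, all 3.12%), the GC box GGGCGG (64.8% and 65.8%, all 66.5%) and the aryl hydrocarbon receptor core GCGTG (48.9% and 50.7%, all 49.1%) were about as frequent in either set as in all promoters. A match is a description of letters and does not show binding.

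Genes of the integrated stress response made up a second group that was higher in the combination. In this response, translation of the factor ATF4 is favoured under amino acid, redox or endoplasmic reticulum stress, and ATF4 with C/EBP partners switches on genes of amino acid supply and stress control. Of 30 members tested, 10 were higher (33.3%) and 2 were lower (6.67%), beside 12.8% and 16.1% of all genes, and the median log2 FC was 0.24. Of those higher, 6 exceeded 2-fold, as did 1.32% of all genes. CHAC1, a glutathione-degrading enzyme (NCBI gene 79094, chr15:40953471-40956512), was at 9.19, 8.47 and 9.72 CPM in the combination, 2.54, 1.42 and 2.74 CPM with 1 µM THZ531, and 4.73, 4.63 and 4.77 CPM in DMSO. Its groups did not overlap, its log2 FC of 2.03 (SE 0.31, adjusted p = 5.95e-05) was among the largest rises, and it was above DMSO in the combination but below it with the high dose. ATF4 itself was at 173, 189 and 192 CPM against 79.3, 71.4 and 73.8 CPM, and its log2 FC was 1.30 (SE 0.20, adjusted p = 5.23e-05).

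DDIT4 (NCBI gene 54541, chr10:72273924-72276036), an inhibitor of mTORC1 signalling, was at 36.0, 32.9 and 39.4 CPM in the combination and at 12.6, 7.66 and 13.3 CPM with 1 µM THZ531, and its log2 FC was 1.69 (SE 0.29, adjusted p = 0.000158). It was the gene of this list that also differed by more than 2-fold between the combinations, being at 11.4, 12.1 and 14.3 CPM with nilotinib and THZ531 (log2 FC 1.52, adjusted p = 0.0102). CEBPG and CEBPB, which encode C/EBP partners of ATF4, had log2 FC values of 1.45 and 1.19, and CEBPG was at 80.3 to 84.6 CPM in the combination and at 22.5 to 34.9 CPM with the high dose. ADM2, SLC38A2, SESN2, SLC3A2 and GARS1 were also higher, at log2 FC 1.62, 0.80, 0.83, 0.62 and 0.39, whereas PSPH and ALDH1L2, enzymes of serine and folate metabolism, were lower at -0.35 and -0.30. Lapatinib alone raised DDIT4 over DMSO by a log2 FC of 1.45 (adjusted p = 0.032), and CHAC1 had 1.36 there without passing the test (adjusted p = 0.054). In the nilotinib combination, compared with the same high-dose libraries, 5 of the 30 members were higher and 1 was lower, and 3 were higher in the lapatinib than in the nilotinib combination. Without replicate 2 of 1 µM THZ531, or without replicate 2 of the lapatinib combination, 9 members were higher and 0 lower.

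HERPUD1, a component of endoplasmic reticulum-associated degradation that is not on that list, was at 50.5, 52.5 and 51.8 CPM in the combination and at 23.0, 18.4 and 25.1 CPM with the high dose (log2 FC 1.22, SE 0.17, adjusted p = 2.85e-05). The combination was nearer to DMSO, at 38.0, 37.6 and 41.7 CPM, than the high dose was. The promoters of CHAC1 and HERPUD1 are printed because both hold TGATGCAA, the composite element of C/EBP and ATF factors, which was searched after the values of these genes were seen. The letters were in 2 of 146 promoters of higher genes (1.37%), in 0 of 219 of lower genes and in 63 of 12271 of all (0.513%). The 2 were those of CHAC1 and HERPUD1, which prompted the search, so the share among higher genes is a description only. The windows are chr15:40953221-40953470 and chr16:56931892-56932141 (GRCh38.p14, plus strand), and capitals mark that element on the opposite strand, 209 and 176 bases before the start, and in HERPUD1 also CACGTG at 159 and TATAAA at 29 bases.
CHAC1: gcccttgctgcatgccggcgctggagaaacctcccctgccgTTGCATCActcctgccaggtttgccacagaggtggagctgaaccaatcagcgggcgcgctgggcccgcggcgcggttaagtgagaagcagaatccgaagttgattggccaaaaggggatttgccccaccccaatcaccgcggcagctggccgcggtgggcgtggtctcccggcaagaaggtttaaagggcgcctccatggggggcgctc
HERPUD1: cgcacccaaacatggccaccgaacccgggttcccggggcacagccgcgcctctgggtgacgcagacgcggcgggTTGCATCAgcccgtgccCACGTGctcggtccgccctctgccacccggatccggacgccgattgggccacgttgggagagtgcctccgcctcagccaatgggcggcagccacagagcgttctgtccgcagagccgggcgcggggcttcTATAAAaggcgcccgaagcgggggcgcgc

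**Figure D3:**
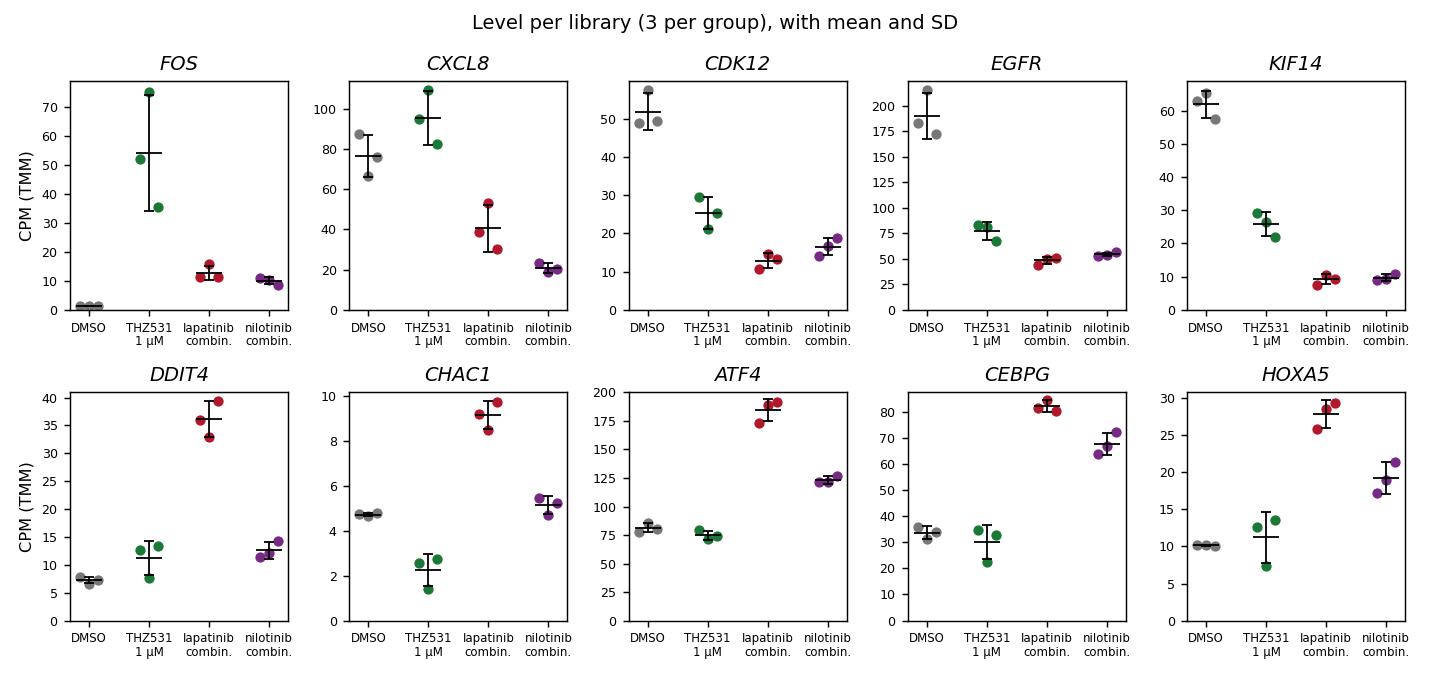
Level of 10 genes in each library (CPM after TMM scaling, y axes from 0) for DMSO, 1 µM THZ531, the lapatinib combination and the nilotinib combination, 3 libraries each; points are libraries, and bars are the mean and SD. FOS, CXCL8, CDK12, EGFR and KIF14 are lower in the lapatinib combination than with 1 µM THZ531, and DDIT4, CHAC1, ATF4, CEBPG and HOXA5 are higher, with no overlap between the libraries of these groups.

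HOX, forkhead and SOX genes, which encode developmental transcription factors, were higher as a group. Of 70 members tested, 38 were higher (54.3%, beside 12.8% of all genes) and 2 (HOXC6 and FOXP4) were lower, and the median log2 FC was 0.56. Against DMSO the median of these genes was 0.15 in the combination and -0.39 with 1 µM THZ531. In the nilotinib combination, compared with the same high-dose libraries, 22 of the 70 were higher and 2 lower, with a median log2 FC of 0.31. Directly between the combinations, 1 was higher with lapatinib and 0 were lower. FOXO1, a forkhead factor restrained by AKT signalling, was at 9.78, 10.7 and 11.3 CPM in the combination and at 4.65, 2.01 and 4.90 CPM with the high dose (log2 FC 1.46, SE 0.21, adjusted p = 2.51e-05). HOXA5 was at 25.8, 28.6 and 29.3 CPM against 12.7, 7.34 and 13.6 CPM (log2 FC 1.32, SE 0.15, adjusted p = 2.51e-06), while its DMSO libraries were at 10.1 to 10.2 CPM. HOXA5 overlaps HOXA-AS3 and HOXA3 in the annotation, and counts were made without strand. HOXA10 and FOXD1 had log2 FC values of 0.84 and 0.95.

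Most of these genes are short in structure, since 52 of the 70 had 1 to 3 exons. Of those 52, 32 were higher (61.5%) and 1 was lower, against 25.9% higher and 10.6% lower among 1794 other protein-coding genes with 1 to 3 exons. Without replicate 2 of 1 µM THZ531 33 members were higher and 3 lower, and with scaling to mitochondrial mRNAs 32 were higher and 3 lower. Of 416 zinc finger ZNF genes, the largest family of transcription factors, 78 were lower (18.8%) and 69 were higher (16.6%), beside 16.1% and 12.8% of all genes. Past 2-fold, 17 ZNF genes (4.09%, beside 1.82% of all genes) were lower and 1 was higher. ZNF611 was at 0.994, 0.919 and 0.746 CPM against 2.07, 2.06 and 1.67 CPM (log2 FC -1.12, adjusted p = 1.37e-05), and 43 ZNF genes were higher and 90 lower without replicate 2 of the high dose, 42 and 79 without replicate 2 of the combination, and 34 and 99 with scaling to mitochondrial mRNAs.

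Among the targets of the drugs, CDK12 and EGFR were lower in the combination and the others did not pass the test. CDK12 (chr17:39461486-39567559) was at 10.7, 14.5 and 13.3 CPM in the combination and at 29.6, 21.1 and 25.3 CPM with the high dose, and its log2 FC was -0.98 (SE 0.14, adjusted p = 3.6e-05). DMSO libraries were at 48.8 to 57.5 CPM, so the level of CDK12 mRNA was below DMSO in both. EGFR (chr7:55019017-55211628) was at 44.4, 50.3 and 50.7 CPM against 83.1, 81.3 and 67.3 CPM, and its log2 FC was -0.67 (SE 0.10, adjusted p = 2.86e-05). ERBB2 had a log2 FC of -0.19 (SE 0.11, adjusted p = 0.231), CDK13 of 0.39 (SE 0.17, adjusted p = 0.0947) and ABCG2 of -0.08 (SE 0.12, adjusted p = 0.685). A p that misses the threshold does not show that these levels were equal.

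Of 22 transcriptional CDKs, cyclins and regulators of P-TEFb, the kinase complex that releases paused polymerase, 3 were lower (13.6%, beside 16.1% of all genes) and 6 higher (27.3%, beside 12.8%), and 4 were higher without replicate 2 of the high dose. CDK19, a Mediator kinase, and LARP7, a component of the 7SK particle that holds P-TEFb inactive, were lower at log2 FC -0.66 and -0.39. The cyclins CCNK, the partner of CDK12 and CDK13, and CCNT1 and CCNT2, partners of CDK9, were higher at 0.63, 0.62 and 0.95, and the P-TEFb inhibitor HEXIM1 was higher at 0.78. Of 16 ERBB receptors, ligands and adaptors, 3 were lower (EPGN, EGFR and CBL) and 4 higher (GRB2, NRG1, SOS2 and GAB1), at -2.17 to 0.50. These were shares of 18.75% lower and 25% higher, beside 16.1% and 12.8% of all genes. EPGN was below 0.3 CPM in all 6 libraries, and 1 combination library was at 0. With scaling to mitochondrial mRNAs 3 of the 16 were lower and 0 higher, and 2 were higher without replicate 2 of the high dose or without replicate 2 of the combination.

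Feedback and output genes of ERK signalling were mixed, with 8 of 24 higher (33.3%) and 5 lower (20.8%), beside 12.8% and 16.1% of all genes, and a median log2 FC of 0.24. ETV1, an ETS factor, was at 25.9, 22.3 and 23.2 CPM in the combination and at 49.7, 51.6 and 45.2 CPM with the high dose, and its groups did not overlap (log2 FC -1.04, SE 0.10, adjusted p = 6.17e-07). Cyclin D1 (CCND1) and ETV5 were lower at -0.45 and -0.26. The phosphatases DUSP4, DUSP5 and DUSP6 and the inhibitors SPRY2, SPRED2 and ERRFI1, all of which dampen receptor or ERK signals, were higher at log2 FC 0.38 to 0.79. PHLDA1 was higher at 0.85. Without replicate 2 of the combination 7 members were higher and 4 lower, with a median log2 FC of 0.09. In the nilotinib combination, compared with the same high-dose libraries, 7 of the 24 were higher and 2 lower, with a median of 0.17. Directly between the combinations, 0 were higher with lapatinib and 1 was lower.

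Of 21 inflammatory cytokines and feedback genes of NF-kB, 7 were lower (33.3%) and 2 higher (9.52%), beside 16.1% and 12.8% of all genes. Without replicate 1 of the high dose 4 were lower and 3 higher, and without replicate 1 of the combination 5 and 3. In the nilotinib combination 9 of the 21 were lower and 5 higher than with the high dose. CXCL8, a neutrophil chemokine, was at 38.5, 53.02 and 30.04 CPM in the combination, 94.7, 109 and 82.5 CPM with 1 µM THZ531 and 66.5 to 87.4 CPM in DMSO, and its log2 FC between the first groups was -1.24 (SE 0.16, adjusted p = 1.03e-05). Its libraries did not overlap between these groups, and against DMSO its log2 FC was -0.92 in the combination and 0.32 with the high dose. With nilotinib and THZ531 CXCL8 was lower still, at 18.7 to 23.4 CPM, and the difference between the combinations passed the test (log2 FC 0.96, adjusted p = 0.00449). CCL2 was lower at -0.87, ICAM1 at -0.64 and NFKB2 at -0.63, and NFKB1 was higher at 0.28. The median of the list was -0.16 with all libraries but 0.06 without replicate 2 of 1 µM THZ531, when 7 members were lower and 1 higher.

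Genes of homologous recombination and the Fanconi anemia pathway, which repair double-strand breaks and crosslinks, were lower in 13 of 33 (39.4%) and higher in 2 (6.06%), beside 16.1% and 12.8% of all genes. The lower members were 8 without replicate 1 of 1 µM THZ531 and 9 with RLE scaling or without replicate 2 or 3 of the combination. Their median log2 FC was -0.18, and against DMSO their median was -0.97 in the combination and -0.71 with 1 µM THZ531. UBE2T, the ubiquitin-conjugating enzyme of the Fanconi pathway, was at 13.3, 10.7 and 9.98 CPM in the combination and at 20.4, 25.7 and 19.4 CPM with the high dose, with DMSO at 48.1 to 54.1 CPM. Its log2 FC was -0.95 (SE 0.12, adjusted p = 7.07e-06), and those of RAD54L and BRCA1 were -0.75 and -0.69. FANCA and FANCF were higher, at 0.28 and 0.54. In the nilotinib combination 4 of the 33 were lower and 2 higher than in the same high-dose libraries.

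Of 20 DNA damage checkpoint genes, 5 were lower (25%) and 4 were higher (20%), beside 16.1% and 12.8% of all genes, but 2 were lower and 4 higher without replicate 1 of the high dose, and 5 and 2 with scaling to mitochondrial mRNAs. ATR and its partner ATRIP were lower at log2 FC -0.43 and -0.59, and the phosphatase PPM1D and the kinase WEE1 were higher at 0.90 and 0.58. Of 32 genes of replication licensing and the G1/S transition, 11 were lower (34.4%) and 5 higher (15.6%). The counts were 6 lower and 1 higher with scaling to mitochondrial mRNAs, 7 and 5 with RLE scaling, 7 and 3 without replicate 2 or 3 of the combination, and 9 and 3 without replicate 2 of the high dose. GINS1, a subunit of the replicative helicase, was at 5.30, 4.004 and 4.34 CPM against 11.8, 12.8 and 10.1 CPM, and at 55.0 to 56.1 CPM in DMSO (log2 FC -1.35, SE 0.12, adjusted p = 2.27e-07). E2F1, RRM2 and the helicase subunits MCM2, MCM3, MCM4 and MCM6 were lower at -0.53 to -0.20, and PCNA and GINS3 were higher at 0.45 and 0.81. Of 25 mitotic genes, 7 were lower (28%) and 3 higher (12%), and CDC25C and TOP2A were lower at -0.59 and -0.37. The higher mitotic genes were 0 with scaling to mitochondrial mRNAs, 1 with library size alone or without replicate 2 of either group, and 6 without replicate 3 of the high dose.

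Stress genes outside the ATF4 list were higher in part. Of 20 heat shock and chaperone genes, 8 were higher (40%, beside 12.8% of all genes) and 0 lower, and 5 were higher with scaling to mitochondrial mRNAs. In the nilotinib combination, compared with the same high-dose libraries, 8 of the 20 were also higher and 0 lower. HSPA6, an HSP70 form that is strongly stress-inducible, was at 3.42, 4.53 and 4.58 CPM in the combination and at 1.68, 1.24 and 1.87 CPM with the high dose (log2 FC 1.39, SE 0.19, adjusted p = 1.52e-05), and DNAJB4, HSF2 and DNAJB1 had log2 FC values of 1.14, 0.90 and 0.61. Of 20 NRF2 targets and metallothioneins, 10 were higher (50%) and 2 lower (10%). The metal-binding MT1X was higher at 0.80 and haem oxygenase HMOX1 also at 0.80, while KEAP1, which targets NRF2 for degradation, was lower at -0.29. With scaling to mitochondrial mRNAs 4 of these 20 were higher and 2 lower. In the nilotinib combination 5 of these 20 were higher and 2 lower than with the high dose.

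Among p53 targets 5 of 20 were lower (25%) and 6 higher (30%), beside 16.1% and 12.8% of all genes, and without replicate 2 of the combination 6 were lower and 3 higher. The death receptor TNFRSF10B, the ribonucleotide reductase subunit RRM2B and MDM2 were lower, at log2 FC -0.71, -0.89 and -0.86, and GADD45A and PLK2 were higher at 0.63 and 0.53. Of 17 BCL2 family genes, 2 were lower (11.8%) and 5 higher (29.4%), and 3 were higher without replicate 2 of the combination. BCL2L2, an anti-apoptotic member, was at 7.18, 8.41 and 8.11 CPM in the combination against 17.6, 24.8 and 15.6 CPM (log2 FC -1.29, SE 0.13, adjusted p = 7.3e-07), and DMSO libraries were at 17.5 to 21.2 CPM. BCL2L2 overlaps the readthrough gene BCL2L2-PABPN1. MCL1 and BCL2L1, which also protect from apoptosis, were higher at 0.66 and 0.42, and against DMSO they were at -0.48 and -0.78 in the combination and -1.14 and -1.21 with the high dose. With scaling to mitochondrial mRNAs 2 members of this family were lower and 2 higher, and 6 p53 targets were lower and 4 higher, as they were without replicate 2 of the high dose.

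Of 29 matrix and mesenchymal genes, 4 were higher (13.8%) and 3 lower (10.3%), near the shares of 12.8% and 16.1% over all genes, and 1 was lower with RLE scaling or without replicate 1 or 3 of the combination. ZEB2, a repressor of epithelial genes, was lower at log2 FC -0.84. Of 25 ABC transporters, 4 were lower (16%; 2 genes without replicate 2 of the combination), led by ABCC2 at -0.68, and 1 was higher, ABCF3 at 0.53. Aryl hydrocarbon receptor targets CYP1B1, AHRR and CYP1A1 were lower at -0.61, -0.48 and -0.69 and the receptor gene AHR was higher at 0.89. These were 37.5% lower and 12.5% higher of 8 genes tested. Of 27 genes of sterol and fatty acid synthesis, 6 were lower (22.2%) and 7 higher (25.9%), and 3 were lower without replicate 2 or 3 of the combination. SREBF1, the regulator of lipid synthesis, was lower at -0.52, and HSD17B7 was higher at 0.85. With scaling to mitochondrial mRNAs the counts were 2 lower and 1 higher for the matrix genes and 5 lower and 3 higher for lipid synthesis.

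RNA processing genes were called in both directions. Of 34 cleavage, polyadenylation and Integrator genes 8 were lower (23.5%) and 6 higher (17.6%), beside 16.1% and 12.8% of all genes, with INTS14 and PCF11 at -0.52 and -0.47 and the kinase CLP1 at 0.95. Of these 34, 5 were lower without replicate 2 of the combination, and 7 were lower and 2 higher with scaling to mitochondrial mRNAs. Of 30 SR proteins, hnRNPs and splicing kinases 9 were lower (30%) and 7 higher (23.3%), and 7 were lower and 4 higher with scaling to mitochondrial mRNAs. The SR protein genes SRSF3, SRSF7, SRSF10 and SRSF11 were lower at log2 FC -0.48 to -0.35, and the kinases that phosphorylate SR proteins, CLK1 and CLK3, were higher at 0.99 and 0.74. CLK1 was at 36.3, 39.2 and 38.1 CPM in the combination and at 22.9, 14.3 and 20.2 CPM with the high dose.

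Housekeeping groups had few calls. Their median log2 FC was 0.15 for cytosolic ribosomal protein genes, 0.14 for nuclear oxidative phosphorylation genes and 0.08 for proteasome genes. That of mitochondrial ribosomal protein genes was 0.15, and that of all genes was -0.02. Of 81 cytosolic ribosomal protein genes 3 were higher and 1 lower, of 81 nuclear genes of oxidative phosphorylation 4 and 1, and of 34 proteasome genes 3 and 1, whereas with scaling to mitochondrial mRNAs 0 were higher and 1 was lower in each group. All of these shares lay below the 12.8% and 16.1% of all genes, and the higher ribosomal protein genes ranged from 0 to 9 with single libraries left out, with 9 without replicate 2 of the combination. Mitochondrial ribosomal protein genes were higher in 19 of 76 (25%) and lower in 4 (5.26%), with MRPL44 at 34.2, 37.0 and 36.6 CPM against 21.1, 16.7 and 22.4 CPM (log2 FC 0.84, adjusted p = 1.43e-06). MRPL49 was lower at -0.74. With scaling to mitochondrial mRNAs 4 of the 76 were higher and 3 lower. In the nilotinib combination 20 of the 76 were higher and 2 lower than with the high dose. Replication-dependent histone genes, whose mRNAs lack a polyA tail and are poorly captured here, were lower in 2 of 39 (H2AC11 and H2BC15) and higher in 0, and both calls were lost without replicate 2 of the high dose and without replicate 2 or 3 of the combination.

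Among noncoding RNAs, 31 of 313 LINC genes were lower (9.90%) and 16 higher (5.11%), and 37 of 541 antisense genes were lower (6.84%) and 27 higher (4.99%), all below the shares of 16.1% and 12.8% over all genes. Without replicate 2 of the high dose 13 antisense genes were higher and 31 lower. LINC00641 was at 7.63, 6.75 and 7.27 CPM against 15.6, 18.3 and 13.8 CPM (log2 FC -1.14, adjusted p = 2.27e-07), and LINC00662 at 26.9, 25.4 and 26.3 CPM against 12.8, 8.24 and 11.9 CPM (log2 FC 1.25, adjusted p = 3.53e-06). NNT-AS1 was lower at -1.34, but it overlaps NNT and the counting did not use strand. Of 27 spliceosomal snRNA genes and 7SK, 3 were lower (RNU12, RN7SK and RNU4-2, at log2 FC -1.10, -0.99 and -1.05) and RNVU1-6 was higher at 1.02. These were shares of 11.1% lower and 3.70% higher, beside 16.1% and 12.8% of all genes. Without replicate 2 of the high dose, or without any 1 of the combination libraries, 1 was lower. Against DMSO the median log2 FC of these 27 was 3.97 in the combination and 4.52 with the high dose. The libraries were polyA-selected, and whether these reads come from mature snRNAs was not tested. Of 23 host genes of snoRNAs, 7 were higher (30.4%, beside 12.8% of all genes) and 1 lower (4.35%, beside 16.1%), with SNHG3 at 0.55 and GAS5 at 0.40. With scaling to mitochondrial mRNAs 2 of the 23 were higher and 2 lower. Among 147 snoRNA genes 3 were higher (2.04%) and 2 lower (1.36%), and among 74 microRNA genes 8 were higher (10.8%, beside 12.8% of all genes) and 1 lower. Without replicate 2 of the high dose 3 microRNA genes were higher, without replicate 2 of the combination 5, and with scaling to mitochondrial mRNAs 2.

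Apart from FOS and FRG1, the 10 largest falls among protein-coding genes were of genes that were on average below DMSO with the high dose and lower still in the combination. ZNF609, a zinc finger gene (chr15:64459578-64686068), was at 0.645, 1.19 and 1.20 CPM in the combination, 5.91, 3.47 and 4.61 CPM with 1 µM THZ531 and 27.8 to 37.6 CPM in DMSO (log2 FC -2.20, SE 0.28, adjusted p = 7.69e-06). IRF2, an interferon regulatory factor, was at 0.426, 0.624 and 0.701 CPM against 3.04, 1.63 and 2.52 CPM, with DMSO at 13.5 to 14.9 CPM (log2 FC -2.04, SE 0.20, adjusted p = 4.83e-07). KIF14, a mitotic kinesin (chr1:200551497-200620751), was at 7.60, 10.6 and 9.33 CPM against 29.2, 26.5 and 21.97 CPM, and at 57.4 to 65.4 CPM in DMSO (log2 FC -1.49, SE 0.14, adjusted p = 3.35e-07). For all 3 genes the order from DMSO through the high dose to the combination was a fall without overlap of the libraries.

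VASH2, CENPQ, KIAA1671, SLC2A10 and ARHGAP19 followed, at log2 FC -1.59, -1.55, -1.54, -1.54 and -1.49. VASH2 acts in angiogenesis and tubulin processing, CENPQ belongs to the inner kinetochore, SLC2A10 is a facilitative sugar transporter and ARHGAP19 regulates RhoA. The largest fall of all by the rule was that of FRG1 (log2 FC -4.30, SE 1.10, adjusted p = 0.00535), but its DMSO libraries were at 8.22, 9.43 and 0.468 CPM and those of the high dose at 20.96, 2.87 and 19.55 CPM. FRG1 has near-identical copies in the genome that can share reads, so its value is uncertain. Among other biotypes, LOC100129034 (-1.88), the pseudogene BEND3P3 (-1.87) and the lncRNA THRIL (-1.67) fell furthest, and LOC100129034 and THRIL overlap PSMB7 and BRI3BP.

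The largest rises held several genes not yet described. EID3, a SMC5/6 subunit of 1 exon, was at 15.5, 19.1 and 18.7 CPM in the combination, 6.42, 3.66 and 5.70 CPM with the high dose and 0.112 to 0.226 CPM in DMSO (log2 FC 1.76, SE 0.18, adjusted p = 9.57e-07). It lies within TXNRD1 in the annotation, so without strand its reads and those of TXNRD1 cannot be told apart. GAS1, a growth arrest gene of 1 exon, was at 16.8, 18.2 and 18.7 CPM against 8.64, 3.99 and 7.85 CPM, and CCDC71L at 67.7, 78.6 and 77.4 CPM against 35.7, 21.8 and 31.8 CPM (log2 FC 1.39 and 1.33). DMSO libraries lay between the groups for both, at 10.4 to 11.6 CPM for GAS1 and 47.7 to 49.2 CPM for CCDC71L. PRDM12 was at 2.14, 3.36 and 2.56 CPM against 1.22, 0.943 and 0.941 CPM (log2 FC 1.38, adjusted p = 0.0016).

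YTHDC1 and ACACA headed the list by size, at log2 FC 2.65 and 2.63, but with SE values of 0.94 and 0.78. ACACA, the rate-limiting enzyme of fatty acid synthesis, was at 2.83, 8.51 and 1.43 CPM in the combination, 0.682, 0.660 and 0.717 CPM with the high dose, and 4.02, 3.86 and 1.24 CPM in DMSO. YTHDC1, a reader of methylated adenosine in RNA, passed the test with an adjusted p of 0.0398, but not in 6 of 21 fits that each left out a library, and ACACA did not pass without replicate 2 of the combination (log2 FC 1.63). Among other biotypes the pseudogene RNF138P1 (1.64), SNORD11, which lies within NOP58 (1.61), and NCBI gene 101929519 (1.60) rose most, all from below 0.4 CPM in DMSO.

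The nilotinib combination served as a reference with the same low dose of THZ531. Directly against it, 2 genes (0.0125%) were lower and 8 (0.0499%) were higher in the lapatinib combination past 2-fold, and 118 (0.736%) and 117 (0.73%) at any size. The 8 higher genes were PDK4, PTGS2, GPRC5A, DDIT4, FRAS1, ACTRT3, LOC101928093 and ZNF497-AS1, and GRM8 and CASS4 were lower. PDK4, an inhibitor of pyruvate dehydrogenase, and GPRC5A, a retinoid-inducible receptor, were at log2 FC 1.67 and 1.12 against the nilotinib combination and at 0.75 and 0.47 against 1 µM THZ531. DDIT4 and FRAS1 also passed 2-fold against 1 µM THZ531, FRAS1 at 1.07 (adjusted p = 0.0206) with all libraries below 0.3 CPM, and FRAS1 did not pass without replicate 2 of the high dose (log2 FC 0.71) or without replicate 3 of the combination. The nilotinib combination differed from the same 1 µM THZ531 libraries in 266 lower (1.66%) and 144 higher genes (0.898%), and since these libraries are shared the counts are given side by side only.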

How the data were processed

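RNA-seq was analysed in Hs578T cells in 21 libraries of 7 groups with 3 replicates each, collected 8 h after treatment. The authors filtered paired-end reads of unstranded polyA libraries, aligned them to GRCh38 with HISAT2 2.1.0 and counted reads per gene with featureCounts, and deposited raw counts per NCBI gene identifier, without normalization. The annotation and the handling of read pairs are not given in the sources used here. Names and coordinates came from RefSeq (GRCh38.p14) and exon numbers from GENCODE. Library columns were matched to samples by name, and 0 columns were left unused.

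Counts were filtered with filterByExpr, scaled with TMM and fitted over all 21 libraries with 1 mean per group in edgeR 4.0.16 (R 4.3.3). Each contrast used glmQLFTest, with Benjamini-Hochberg adjustment over 16036 genes. Calls needed an adjusted p under 0.05 and, for 2-fold calls, a log2 FC beyond 1. CPM values are after TMM, and per-gene error is the spread over 3 libraries or the SE of the log2 FC.

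Named genes were the 10 largest rises and falls among 2-fold protein-coding calls with at least 2 CPM in a group and no overlap, 3 of each for other biotypes, up to 5 of each with the combination nearer DMSO, the 4 smallest p-values of each list, the drug targets and ABCG2, and calls shared with the contrast between the combinations. Other list members are named to account for counts, after their values were seen. The comparison and the lists were chosen with earlier results of these data known. Lists are described by counts and medians, without a set test. Alternatives were RLE, library size, upper-quartile and mitochondrial scaling, other count filters, glmTreat, DESeq2 1.42.0, a block on the replicate number, a fit of the compared groups alone and each library left out. Leave-outs and DESeq2 for lists, and the element TGATGCAA, were added after seeing the data.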

Additional observations from a re-analysis of the deposited data

Results flagged for a closer look

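DDIT4 differed between the lapatinib and nilotinib combinations, which hold the same dose of THZ531, by a log2 FC of 1.52 (SE 0.29, adjusted p = 0.0102 after Benjamini-Hochberg adjustment in edgeR), with all 3 lapatinib combination libraries above all 3 of the nilotinib combination. FRAS1, a gene of basement membrane adhesion, differed by 1.63 (SE 0.36, adjusted p = 0.0246), at levels under 0.3 CPM. Both genes also passed the test against 1 µM THZ531. With 3 libraries per group no test for outlying libraries was made.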

How the results depend on the processing

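Against 1 µM THZ531, the counts of 292 lower and 211 higher genes became 460 and 123 with scaling to mitochondrial mRNAs, which moved the median log2 FC of all genes from -0.02 to -0.16, and higher genes of any size fell from 2049 to 955. With glmTreat they were 5 and 0. With the compared groups alone in the fit, genes of any size were 1240 lower and 1146 higher, in a fit with fewer samples that tested 15009 genes. Leaving out 1 library gave 258 to 334 lower and 85 to 337 higher genes, and 2072 to 2688 and 1467 to 2173 at any size. The low end for the higher genes came without replicate 2 of 1 µM THZ531, and the high ends without replicate 1 of the lapatinib combination (337) or replicates 1 (329) and 3 (304) of 1 µM THZ531.

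Between the combinations, the 2 lower and 8 higher genes became 1 lower with RLE scaling, 4 lower with library size alone, 4 higher with mitochondrial scaling, 4 lower without a filter, 1 lower with at least 10 counts in every library, 4 lower with DESeq2, 0 and 0 with glmTreat (20 lower and 29 higher at an unadjusted p under 0.05), and 0 and 1 with the 2 groups alone (602 lower at an unadjusted p under 0.05 in edgeR). Leaving out 1 library gave 0 to 7 lower and 3 to 13 higher genes. The cause of these shifts was not tested.

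Of 153 named genes past the test, 133 passed in every fit that left out a library and 118 in every other alternative except glmTreat, which 3 passed, and in 4886 comparisons of a named gene with an alternative setting 0 changed direction with a call. Same-numbered libraries of the 2 groups had correlations of their deviations of -0.667, -0.634 and -0.113, and libraries with another number reached 0.636. Over all groups the mean correlation was 0.115 for the same number and -0.054 for another number. In these 2 groups the correlations showed no pairing by number, and not every library correlated best with its own number. Deviations of 3 libraries from their own mean depend on one another, and a library that stands apart weighs on them. These values therefore cannot decide whether libraries of the same number came from the same experiment. Whether the libraries share a batch or order that the numbers do not follow was not tested. With the replicate block 295 lower and 212 higher genes were called, and 2 and 9 between the combinations. Depth limits genes such as EPGN and FRAS1 most, at levels below 0.3 CPM.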
